A study of Mus musculus with 22 samples.

Results

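The Creb3 family comprises Creb3, Creb3l1, Creb3l2, Creb3l3 and Creb3l4, which encode transcription factors of the CREB/ATF class held in the membrane of the endoplasmic reticulum (ER). They were described here together with Mbtps1 and Mbtps2, which encode the site-1 and site-2 proteases. The members were chosen by gene name, and each of the 7 names matched 1 of the 49671 rows of the expression table. The data were 22 RNA-seq libraries of mouse tumour cells in 11 groups of 2.

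The cells were primary lines grown from a tumour whose labelled alleles included Lgr5CreER, p53fl/fl and Rosa26-YFP+/+, so the tumour alleles were shared by all groups. The groups were the knockout lines Creb3l1KO, Pitx1KO, Klf5KO and Nfatc1KO, made with CRISPR/Cas9, and Control. Living mCherry+ YFP+ cells of every line were sorted on day 8 as EPCAM- or EPCAM+ (EPCAM is an epithelial surface protein), and Control EPCAM+ cells also on day 0. Whether a group's pair of libraries came from separate cultures or clones is not given in the labels, so the p-values measure only the spread between these libraries, which may be technical.

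Family members normally sit inactive in the ER membrane. When they leave the ER in COPII vesicles and reach the Golgi, the site-1 protease and then the site-2 protease cut them, and the freed cytoplasmic part enters the nucleus and switches on genes of the secretory pathway. The same proteases release Atf6 and the Srebf proteins, which control ER chaperones and sterol synthesis. Transcript levels report how much of each message was present, not how much protein was cut.

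Values are the deposited normalised counts, called units below, with 20007331 to 20014236 units per library. They fell on steps of 2.02 to 3.30 units, which were read as 1 sequencing read each and correspond to 6054919 to 9882692 reads in genes per library. Differences are on the log2(value + 1) scale, which understates the change of low genes. They were tested with limma over 19569 genes, and a gene was called at a Benjamini-Hochberg adjusted p below 0.05. All 7 members passed the filter of at least 10 units in at least 2 libraries. Creb3l1 reached 10 units in 3 libraries: both Control EPCAM- libraries and 1 Control EPCAM+ library of day 0. It was thus tested only because of the group in which it was highest. The sorted fractions differed as labelled: Epcam ranged from 90 to 735 units in EPCAM- libraries and from 3702 to 7320 units in EPCAM+ libraries. Of the markers of other cell types, Dcn, Lum and Thy1 (fibroblasts), Ptprc, Cd3e, Adgre1 and Lyz2 (blood cells) and Tek and Emcn (endothelium) had medians of 0 units in both fractions. Others were detected: the medians in EPCAM- and EPCAM+ libraries were 120 and 103.5 units for Pdgfra of fibroblasts, 129.5 and 188.5 units for Csf1r of macrophages, and 113 and 83.5 units for Pecam1 of endothelium. In bulk libraries, fewer cells expressing a gene and less RNA per cell cannot be told apart.

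The members fell into 4 well-detected genes and 3 genes near the detection limit. Per kilobase of exon, the median level over the 22 libraries was 290.4 units for Mbtps1, 229.7 for Creb3l2, 152.4 for Creb3 and 89.4 for Mbtps2. The same measure was 5.96 for Creb3l4, 3.48 for Creb3l3 and 1.15 for Creb3l1. Summed over all libraries, Creb3l1 had 79 reads, Creb3l4 80 and Creb3l3 103, against 25976 for Mbtps1 and 16652 for Creb3l2. The targeted gene of the Creb3l1KO line was therefore the family member with the lowest median level. The most variable of the well-detected members was Creb3l2, whose highest library was 6.99 times its lowest. The steadiest was Mbtps1, at 1.44 times, with Creb3 at 2.09 and Mbtps2 at 2.36 times.

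The promoters of the most and the least variable of these members are shown because family proteins bind the cAMP response element and related sites, whose TGACG core occurs in both. Each run is the 250 bases before the RefSeq transcription start on GRCm38.p6, on the minus strand, at chr6:37442149-37442398 for Creb3l2 and chr8:119558762-119559011 for Mbtps1. Capitals mark TGACG, or CGTCA, its reverse complement.
Creb3l2: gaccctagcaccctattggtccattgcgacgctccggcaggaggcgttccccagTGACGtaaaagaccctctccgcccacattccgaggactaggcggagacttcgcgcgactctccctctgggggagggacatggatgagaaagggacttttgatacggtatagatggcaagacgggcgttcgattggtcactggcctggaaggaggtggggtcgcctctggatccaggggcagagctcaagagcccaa
Mbtps1: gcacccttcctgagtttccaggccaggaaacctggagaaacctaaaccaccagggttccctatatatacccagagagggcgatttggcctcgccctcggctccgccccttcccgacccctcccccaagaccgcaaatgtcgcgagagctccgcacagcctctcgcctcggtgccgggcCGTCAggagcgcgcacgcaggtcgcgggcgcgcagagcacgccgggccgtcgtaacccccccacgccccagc
The core lies 196 to 192 bases before the start in Creb3l2 and 72 to 68 bases before it in Mbtps1. On either strand it was present in 17.8% of 32851 promoter windows of the same length, so its presence in these windows is a description only. The complete element TGACGTCA was present in 1.55% of windows and in no window of the 6 members that have one; Creb3l1 has no entry. The Mbtps1 window held 25 CpG dinucleotides and the Creb3l2 window 16.

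Creb3l1 (chr2:91982328-92024502, GRCm38), known as an activator of collagen genes in bone-forming cells, was well above background in 1 group. In EPCAM- cells on day 8 it was listed at 6 and 0 units in Creb3l1KO, 8 and 3 in Pitx1KO, 8 and 5 in Klf5KO and 0 and 0 in Nfatc1KO, against 137 and 26 units in Control. In EPCAM+ cells it was at 3 and 0 units in Creb3l1KO, Klf5KO and Nfatc1KO alike, and at 0 and 0 units in Pitx1KO and in Control. On day 0, Control EPCAM+ cells had 12 and 7 units. The Control EPCAM- libraries were thus above every other library, and they differed from each other by more than the remaining libraries did.

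In reads, Creb3l1 had 2 in Creb3l1KO EPCAM- cells, against 59 in Control EPCAM- cells. The ratio of the rates was 0.0336, with an exact 95% interval of 0.00397 to 0.127 that covers counting error only. Pitx1KO EPCAM- cells had 4 reads and Klf5KO EPCAM- cells 5. Nfatc1KO EPCAM- cells had 0 reads, so the level in Control was at least 9.45-fold higher when 3 reads are allowed in each library. Of the 59 Control reads, 48 came from replicate 1. Without that library the Creb3l1KO ratio was 0.0997 (0.0107 to 0.457) and the Nfatc1KO bound was 3.18-fold. Without replicate 2 they were 0.0184 (0.00216 to 0.0701) and 17.2-fold. Creb3l1 was therefore low in EPCAM- cells of all 4 knockout lines, not only of the line in which it was targeted. A CRISPR/Cas9 knockout need not lower the message, and these levels do not check it.

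Against this library spread, limma did not call Creb3l1 in Creb3l1KO EPCAM- cells against Control EPCAM- cells (log2 difference -4.53, SE 1.18, adjusted p = 0.213). Nor did it call the mean of the 4 knockouts against Control in EPCAM- cells (-4.22, SE 0.93, adjusted p = 0.113). In these comparisons, 0.261% and 0.0971% of all genes were called, which are 51 and 19 genes. Without replicate 1 of Control EPCAM- cells these counts were 26 and 0, and without replicate 2 the second was 75. Other libraries moved them too: the first was 29 without Creb3l1KO replicate 2, and the second was 10 without either Creb3l1KO or either Klf5KO library and 8 without Nfatc1KO replicate 2. With a pseudocount of 5 units in place of 1, Creb3l1 was called in both (adjusted p = 0.0263 and 0.0135). With voom on the recovered reads it was called in the mean of the 4 knockouts (adjusted p = 0.00496) and not in Creb3l1KO (adjusted p = 0.187). The knockout comparisons share the Control libraries. The comparison of the 4 knockouts was added because earlier results of these data showed Creb3l1 above background in Control EPCAM- cells only. Its p-values for Creb3l1 are therefore a description and no independent support. The genes most like Creb3l1 over the 22 libraries were Pik3r1, Hcfc2 and Ctps2, with Pearson correlations of 0.74, 0.74 and 0.69, as a description.

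**Figure D1:**
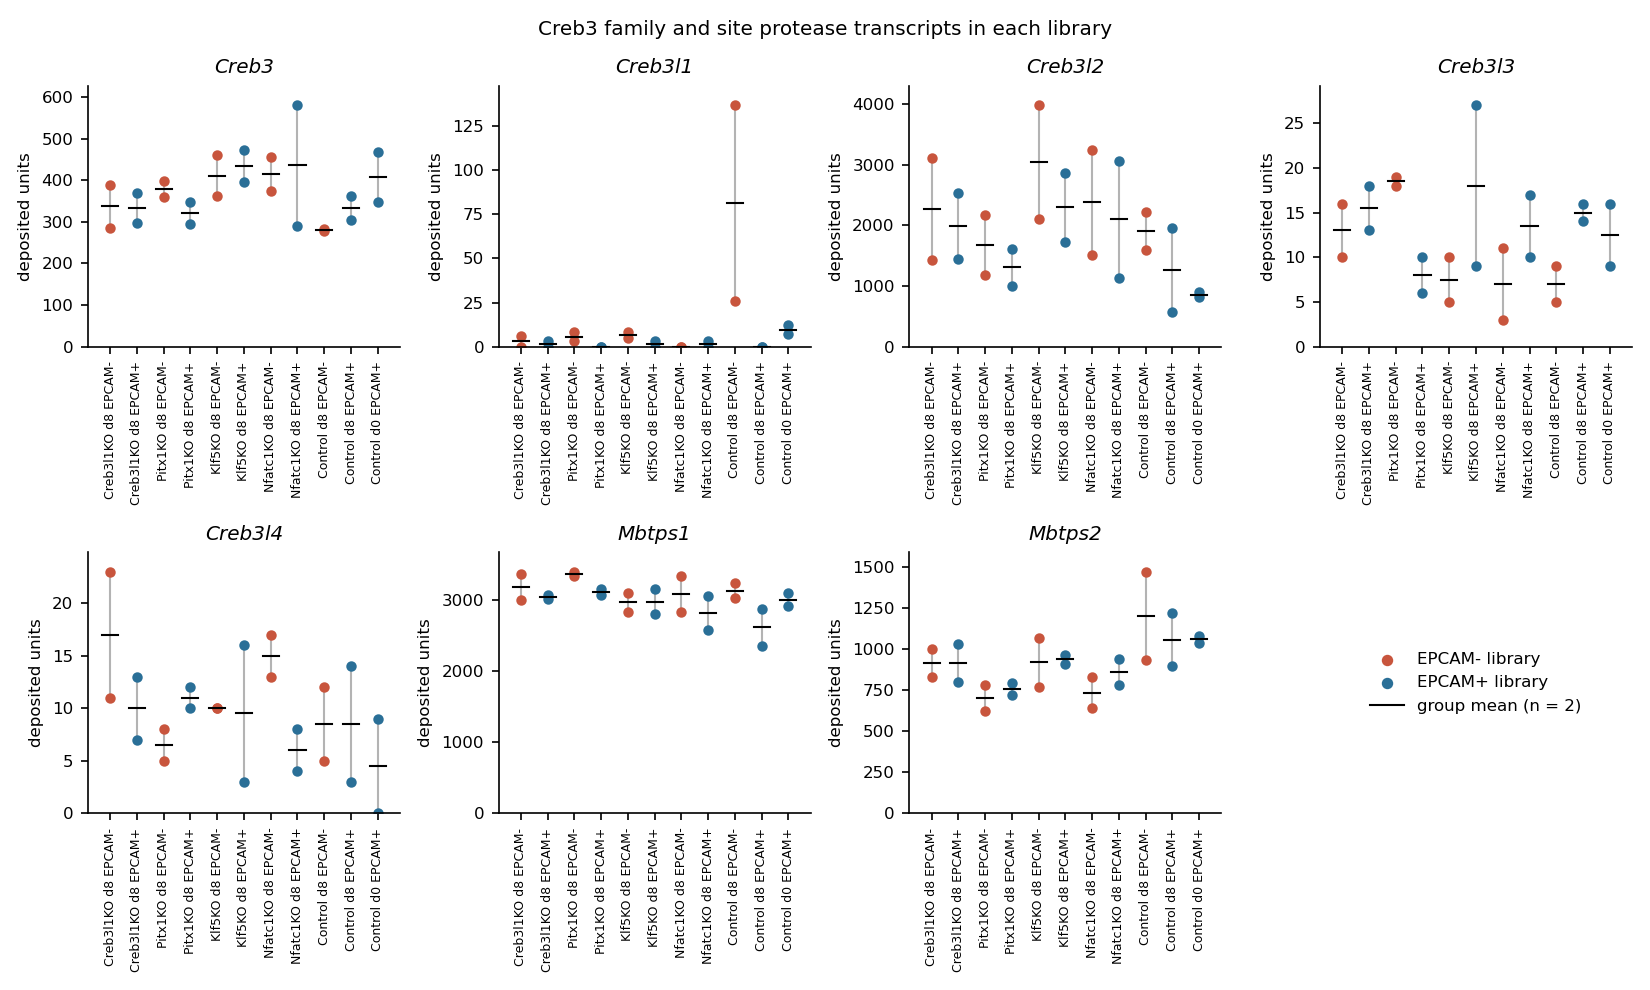
Deposited units of each member in every library (points), by group on the horizontal axis, with the group mean as a black bar and the pair of libraries joined in grey; red is EPCAM- and blue EPCAM+, and each vertical axis starts at 0. Creb3l1 stands out in Control EPCAM- cells (137 and 26 units), Mbtps1 stays between 2357 and 3396 units, and Creb3l2 spans 570 to 3986 units with wide gaps between replicates.

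None of the members was called in Creb3l1KO against the other 4 lines. With both fractions together, limma called 0 of the 7 members and 1.85% of all genes. The counts were also 0 of 7 in EPCAM+ cells, where 0.353% of genes were called, and in EPCAM- cells, where 0.424% were. At an unadjusted p below 0.05, 2667 genes passed with both fractions together, and no member did. Adjusted p for the members ranged from 0.707 for Creb3l3 to 0.897 for Mbtps2.

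Creb3l2 (chr6:37327255-37442146), the closest relative of Creb3l1 and known as an activator of COPII genes in cartilage, did not differ beyond the spread. It averaged 2128 units in the 4 Creb3l1KO libraries and 2000 units in the 16 day 8 libraries of the other lines. The log2 difference was 0.16 (SE 0.35), with a 95% interval of -0.60 to 0.91. This interval does not leave out a change of more than 1.5-fold in either direction, so such a change was not detectable at this spread. Outside Control EPCAM- cells, Creb3l1 itself was at no more than 8 units in the day 8 libraries of the other lines. The comparison therefore cannot show a response of Creb3l2 to the loss of Creb3l1.

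The interval was narrower for the proteases. Mbtps1 (chr8:119508156-119558735) averaged 3114 units in Creb3l1KO and 3008 units in the other lines, a log2 difference of 0.05 with an interval of -0.12 to 0.23. Mbtps2 (chrX:157535371-157598715) averaged 916 units in Creb3l1KO and 896 units in the other lines, a log2 difference of 0.06 with an interval of -0.23 to 0.35. Creb3 (chr4:43562332-43567060), a factor linked to Golgi stress and cell migration, averaged 336 units in Creb3l1KO and 376 units in the other lines (-0.15, interval -0.48 to 0.19).

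Creb3l3 (chr10:81084324-81098874), known for its role in liver and gut lipid metabolism, ranged from 3 to 27 units over all libraries, at most 12 reads. Creb3l4 (chr3:90237500-90243512), best known from testis and prostate, ranged from 0 to 23 units, at most 9 reads. Their differences in Creb3l1KO against the other lines were 0.39 (interval -0.43 to 1.21) and 0.52 (-0.65 to 1.69) on the log2 scale. Both intervals reach past a 1.5-fold change, which was not detectable at these few reads. Their most similar genes correlated at no more than 0.62 (Mb21d2 with Creb3l3) and 0.72 (Mir130c with Creb3l4).

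Compared with Control alone, Creb3l1KO gave no called member in EPCAM+ cells, where 0.194% of all genes were called. Creb3l2 had 2532 and 1439 units in Creb3l1KO EPCAM+ cells, against 570 and 1960 units in Control EPCAM+ cells. These ranges overlapped (log2 difference 0.85, SE 0.63, adjusted p = 0.940). Mbtps1 had 3066 and 3012 units in Creb3l1KO EPCAM+ cells, against 2357 and 2867 units in Control EPCAM+ cells. These ranges did not overlap, and the difference was not called (0.23, SE 0.15, adjusted p = 0.923). Pitx1KO EPCAM+ cells, at 3067 and 3158 units of Mbtps1, were also above both Control libraries. The share of all genes that separate in this way was not counted.

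**Figure D2:**
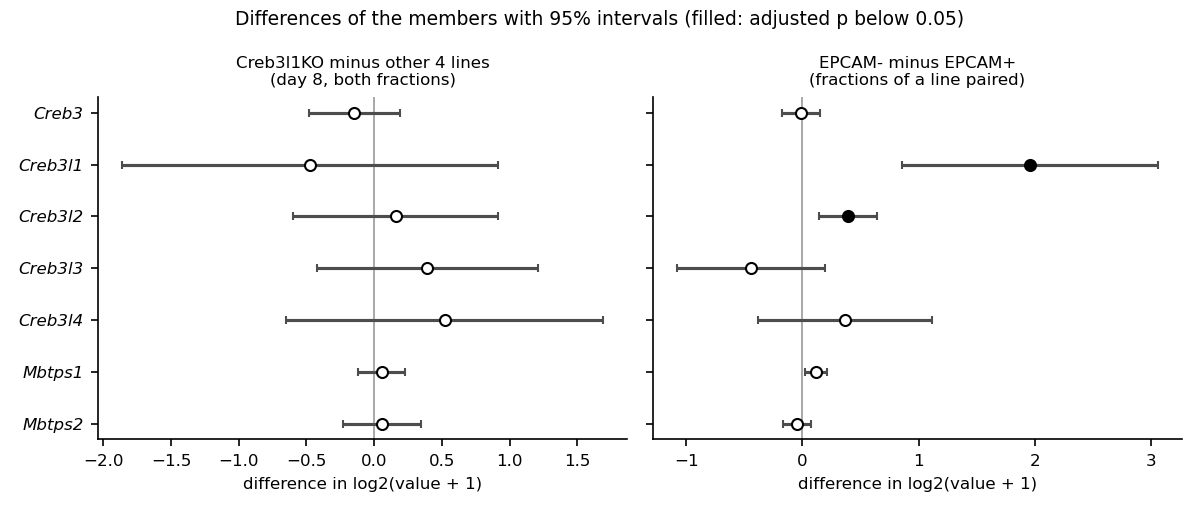
Log2 difference of each member with its 95% interval (bars) for Creb3l1KO minus the other 4 lines (left) and for EPCAM- minus EPCAM+ with the fractions of a line paired (right); filled points have an adjusted p below 0.05. No member is filled on the left, and Creb3l1 (1.96) and Creb3l2 (0.39) are filled on the right.

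The fraction was the other axis along which members were compared. Over the 5 lines, limma called 1 of the 7 members, Creb3l1, in EPCAM- against EPCAM+ cells, where 6.22% of all genes were called and 2.74% were higher. Creb3l1 averaged 19.3 units in EPCAM- cells and 0.9 units in EPCAM+ cells (log2 difference 1.96, SE 0.53, adjusted p = 0.0338). It passed the filter on low values only through the Control EPCAM- libraries, so this call is not independent of the filter. Without the filter, limma gave an adjusted p of 0.0344. Creb3l1 was higher in EPCAM- cells in 7 of 10 pairs of the same line and replicate number, lower in 1, and at 0 units in both fractions in the rest. Outside Control it had at most 8 units, or 3 reads, in any library of these pairs. Tested in each line, it was called in Control (5.93, adjusted p = 0.0228, with 0.644% of genes called). It was not called in Creb3l1KO (0.40), Pitx1KO (2.58), Klf5KO (1.88) or Nfatc1KO (0 and 0 units in EPCAM- cells, 3 and 0 units in EPCAM+ cells, a negative difference), where 0.291, 0.317, 0.286 and 0.429% of genes were. The call on the mean was lost in 13 of the 20 fits that each left out 1 library. Without the Control EPCAM- library of 137 units the other 9 EPCAM- libraries averaged 6.22 units and the difference was 1.72 (adjusted p = 0.0826), and with voom on the recovered reads the adjusted p was 0.108.

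Creb3l2 was higher in EPCAM- cells in 9 of 10 such pairs. Replicate 1 had 3114 units in EPCAM- and 2532 in EPCAM+ cells of Creb3l1KO, 1188 and 1003 in Pitx1KO, 3986 and 2871 in Klf5KO, 3247 and 3070 in Nfatc1KO, and 1588 and 570 in Control. Replicate 2 had 1428 units in EPCAM- and 1439 in EPCAM+ cells of Creb3l1KO, 2180 and 1611 in Pitx1KO, 2106 and 1735 in Klf5KO, 1518 and 1130 in Nfatc1KO, and 2229 and 1960 in Control. The exception was replicate 2 of Creb3l1KO, where the fractions were nearly level. The ratio ran from 0.992 in that pair to 2.79 in replicate 1 of Control.

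Creb3l2 averaged 2258 units in EPCAM- cells and 1792 units in EPCAM+ cells, a log2 difference of 0.39. With all libraries as independent samples this was not called (SE 0.28, adjusted p = 0.504). With the fractions of a line and replicate number paired, a fit chosen after the data were seen, Creb3l2 rose (SE 0.11, interval 0.14 to 0.64, adjusted p = 0.0327). That fit called 22.7% of all genes and 13.6% as higher, and the call is read against that share. It held in 3 of the 10 fits that each left out a pair, with adjusted p up to 0.105. Without replicate 1 of Control the difference was 0.26 and still called (adjusted p = 0.00444). The fraction difference of Creb3l2 in Creb3l1KO minus that in the other 4 lines was -0.31 with pairing (interval -0.93 to 0.32, adjusted p = 1.00). No gene was called for this difference, with pairing or without (0%), nor with voom, and 147 genes had an unadjusted p below 0.05 without pairing.

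Most of the spread of Creb3l2 lay between replicates. Replicate 1 was higher than replicate 2 in both fractions of Creb3l1KO, Klf5KO and Nfatc1KO, and lower in both fractions of Pitx1KO and Control. In EPCAM- cells the log2 difference of replicate 1 minus replicate 2 was 1.12 in Creb3l1KO, 0.92 in Klf5KO, 1.10 in Nfatc1KO, -0.88 in Pitx1KO and -0.49 in Control. The corresponding EPCAM+ values were 0.81, 0.73, 1.44, -0.68 and -1.78. Ordered by mean, the groups ran from Klf5KO EPCAM- cells (3046 ± 1329 units, SD, n = 2) to Control EPCAM+ cells on day 0 (856 ± 60.1 units), and every pair of neighbours in that order had overlapping replicates.

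**Figure D3:**
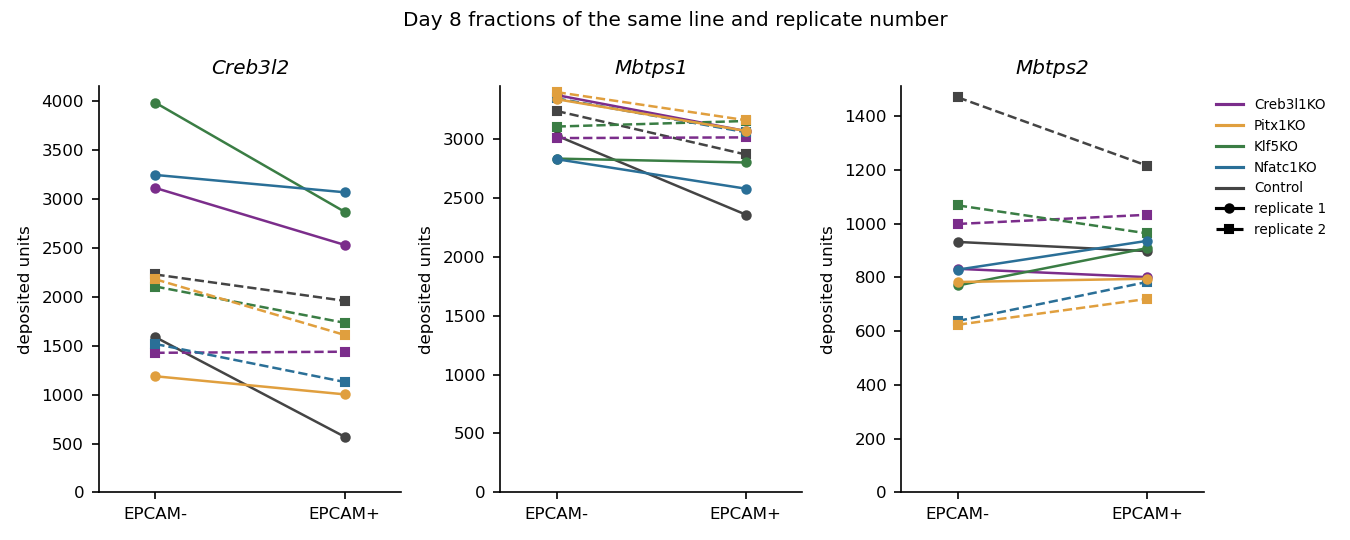
Deposited units of Creb3l2, Mbtps1 and Mbtps2 in EPCAM- (left) and EPCAM+ (right) cells on day 8; each line joins fractions of the same line and replicate number, with colour for the line, and vertical axes start at 0. Creb3l2 slopes down in 9 of 10 pairs and Mbtps1 in 8 of 10, while Mbtps2 slopes both ways.

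The genes whose pattern over the 22 libraries was most like that of Creb3l2 followed it closely. The Pearson correlation of log2(value + 1) was 0.97 with Aff1, a transcription elongation factor, 0.95 with Ctla2a, a cathepsin inhibitor, and 0.95 with Unc5b, a netrin receptor. Within the libraries of replicate 1 and of replicate 2 the values for Aff1 were 0.97 and 0.96. Aff1 showed the same replicate gaps, with 5923 and 3218 units in Creb3l1KO EPCAM- cells and 3198 and 4320 units in Control EPCAM- cells. These are the highest of 10685 genes searched, over points that include libraries of the same line, and they are given as a description. Other members were not among the close partners: the highest correlation of Creb3l2 with a family member was 0.43, with Creb3.

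Mbtps1 was the most even member. It had 3371 and 3006 units in EPCAM- cells of Creb3l1KO, 3336 and 3396 in Pitx1KO, 2832 and 3104 in Klf5KO, 2827 and 3343 in Nfatc1KO, and 3027 and 3236 in Control. In EPCAM+ cells it had 3066 and 3012 units in Creb3l1KO, 3067 and 3158 in Pitx1KO, 2799 and 3151 in Klf5KO, 2577 and 3056 in Nfatc1KO, and 2357 and 2867 in Control. Control EPCAM+ cells of day 0 had 2910 and 3101 units. Group means ran from 3366 units in Pitx1KO EPCAM- cells to 2612 units in Control EPCAM+ cells, and replicates of neighbouring groups overlapped throughout. The EPCAM- minus EPCAM+ difference was 0.12 on the log2 scale, with an adjusted p of 0.363 unpaired and 0.0710 paired. Its closest partners were Mcam (0.82), Clip3 (0.81) and Klhdc2 (0.81).

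The group means of Mbtps2 were highest in the Control groups. It had 832 and 999 units in EPCAM- cells of Creb3l1KO, 783 and 624 in Pitx1KO, 770 and 1068 in Klf5KO, 829 and 638 in Nfatc1KO, against 932 and 1470 in Control. In EPCAM+ cells it had 801 and 1033 units in Creb3l1KO, 795 and 720 in Pitx1KO, 909 and 964 in Klf5KO, 936 and 783 in Nfatc1KO, against 898 and 1216 in Control. Control EPCAM+ cells of day 0 had 1038 and 1078 units. In both fractions, the replicates of Pitx1KO lay below those of Control without overlap, and so did those of Nfatc1KO in EPCAM- cells. The share of all genes that separate in this way was not counted.

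None of these differences was called. In EPCAM+ cells the log2 difference of Pitx1KO minus Control was -0.47 (SE 0.24, adjusted p = 0.540, with 0.409% of genes called). In EPCAM- cells the log2 difference of Pitx1KO minus Control was -0.74 (SE 0.24, adjusted p = 0.208, with 0.915% of genes called), and that of Nfatc1KO minus Control was -0.69 (SE 0.24, adjusted p = 1.00, with 0 genes called and 734 at an unadjusted p below 0.05). The mean of the 4 knockouts was -0.54 against Control in EPCAM- cells (SE 0.19, adjusted p = 0.519). Mbtps2 shares 2867 exon bases with Yy2, a gene on the same strand that averaged 206 units, so reads of either gene could be counted for the other or left out. Its closest partners were Rbbp7 (0.81), Zrsr2 (0.75) and Ubqln2 (0.74), but Ubqln2 was at -0.10 within the libraries of replicate 1.

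Creb3 varied little. It had 388 and 286 units in EPCAM- cells of Creb3l1KO, 360 and 398 in Pitx1KO, 460 and 362 in Klf5KO, 456 and 375 in Nfatc1KO, and 283 and 278 in Control. In EPCAM+ cells it had 370 and 298 units in Creb3l1KO, 295 and 347 in Pitx1KO, 472 and 395 in Klf5KO, 580 and 291 in Nfatc1KO, and 361 and 304 in Control, and on day 0 Control had 348 and 467. All 8 knockout libraries of the EPCAM- fraction were above both Control libraries. The difference was not called (log2 0.44, SE 0.22, adjusted p = 0.795, with 0.0971% of genes called). The nearest libraries were at 286 units in Creb3l1KO and 283 in Control, and 1 read was 2.47 units in that Creb3l1KO library. How many of all genes separate in this way was not counted. Creb3 shares 360 exon bases with Tln1 on the opposite strand, which averaged 10298 units. The sources used here do not say whether counting used strand, so its level is uncertain. Its closest partners were Sc5d (0.85), Rhbdf2 (0.84) and Zfyve27 (0.83).

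No member was called in Control EPCAM+ cells on day 8 against day 0, where limma called 0 genes, with 831 at an unadjusted p below 0.05, 0 called with voom and 5 without the trended robust prior. Creb3l1 was listed at 0 and 0 units on day 8, against 12 and 7 units on day 0. Creb3l2 had 570 and 1960 units on day 8, against 813 and 898 units on day 0, so the day 8 range enclosed that of day 0. Each member's adjusted p was 1.00.

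Genes that work with the family were examined in 6 lists covering the Srebf and Atf6 branch, COPII coat, ER chaperones and unfolded protein response, Golgi, collagens with their modifying enzymes, and other CREB and ATF factors. In Creb3l1KO against the other 4 lines, 0 of the 101 tested genes were called with both fractions together, nor in either fraction alone. Of all genes, 1.85% were called with both fractions together, 0.353% in EPCAM+ cells and 0.424% in EPCAM- cells. The count of 0 is near these shares and is read as no result about the lists. The collagen list had a median log2 difference of -0.17 with both fractions together, against 0.00 over all genes, and 7 of its 24 tested genes were positive. In the other 5 lists the medians lay between -0.09 and 0.10. The largest differences in each list, none called, included Col5a2, a chain of type V collagen, at -2.77 (6.75 units in Creb3l1KO and 157 units in the other lines, or 80.9 units without replicate 1 of Pitx1KO EPCAM- cells, which had 1296) and Col3a1, of type III collagen, at -1.70. They were 0.47 for Golgb1 and -0.32 for Golga2, which encode Golgi matrix proteins, and -0.42 for Insig1 and -0.38 for Insig2, which retain the Srebf proteins in the ER. In the remaining lists they were 0.27 for Edem1, 0.25 for Hsp90b1, 0.24 for Mia3, -0.23 for Preb, -0.38 for Crebl2 and -0.33 for Crem.

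Against Control in EPCAM- cells, 1 of the listed genes was called. Col4a2, a chain of the type IV collagen of basement membranes, had 1815 and 1591 units in Creb3l1KO EPCAM- cells, against 3563 and 3284 units in Control EPCAM- cells, and fell by 1.01 on the log2 scale (SE 0.20, adjusted p = 0.0493), where 0.24% of all genes fell. The groups did not overlap, but the call held in 3 of 12 other fits and was lost when any of the 4 libraries was left out. In EPCAM- cells Col4a2 was also below both Control libraries in Klf5KO (2308 and 2301 units), Nfatc1KO (2640 and 2358) and Pitx1KO (2950 and 2645). Creb3l1KO was lowest, so a level below Control was not particular to that line. Its partner chain Col4a1 had 3350 and 3316 units in Creb3l1KO EPCAM- cells, against 5381 and 5664 units in Control EPCAM- cells, and was not called (-0.73, SE 0.22, adjusted p = 0.359).

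Between the fractions, the collagen list moved most. Of its 24 tested genes, 8 rose in EPCAM- cells and 0 fell, where 2.74% of all genes rose, and its median log2 difference was 0.54 against 0.06 over all genes. With the fractions paired, 15 rose, where 13.6% of all genes did. Over the 29 other fits, 6 to 15 rose and 0 fell. Of the 8, P4ha1 stayed called in 9 of these fits, Plod1 in 20 and Col12a1 in 28. Col12a1 was lost with voom on the recovered reads (adjusted p = 0.0526). Col1a1, Col5a1, P3h1, Serpinh1 and Sparc stayed called in all 29. Col1a1, a chain of type I collagen, averaged 1603 units in EPCAM- cells and 315 units in EPCAM+ cells, a rise of 2.33 on the log2 scale (SE 0.50, adjusted p = 0.0105). Col5a1, a chain of type V collagen, rose by 1.66 (SE 0.25, adjusted p = 0.000863). Among the enzymes and chaperones, P3h1, a prolyl hydroxylase, rose by 1.10 (adjusted p = 0.00181), and Serpinh1, the collagen chaperone of the ER, by 0.57 (adjusted p = 0.00156). Sparc, a collagen-binding matrix protein, rose by 0.74 (adjusted p = 0.000977), and Col12a1, a fibril-associated collagen, averaged 481 units in EPCAM- cells and 196 units in EPCAM+ cells (SE 0.35 on the log2 scale, adjusted p = 0.0180).

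Col1a1 was higher in EPCAM- cells in 10 of 10 pairs. In Creb3l1KO, Col1a1 had 1795 and 474 units in EPCAM- cells, against 476 and 140 units in EPCAM+ cells. In Nfatc1KO it had 3167 and 558 units in EPCAM- cells, against 577 and 67 units in EPCAM+ cells. In Control it had 667 and 585 units in EPCAM- cells, against 81 and 201 units in EPCAM+ cells. Col1a1 and Col3a1 are also fibroblast markers. The summed fibroblast marker list ranged from 623 to 4926 units in EPCAM- libraries and from 90 to 858 units in EPCAM+ libraries, while its members Dcn, Lum and Thy1 had medians of 0 units in both and Pdgfra had medians of 120 and 103.5 units. The part of these cells' markers in the collagen result was not tested. Without pooling pairs, the Col1a1 ranges of the fractions overlapped in Creb3l1KO, in Nfatc1KO and in Klf5KO and did not in Control or in Pitx1KO. Klf5KO had 2189 and 504 units in EPCAM- cells, against 520 and 104 units in EPCAM+ cells. Pitx1KO had 3666 and 2424 units in EPCAM- cells, against 589 and 392 units in EPCAM+ cells.

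The remaining lists moved less. Sec24d, a cargo-binding subunit of the COPII coat, rose in EPCAM- cells and was the 1 called gene of 15 in its list, a share near the 6.22% of all genes. It averaged 2250 units in EPCAM- cells and 1721 units in EPCAM+ cells (0.39, SE 0.09, adjusted p = 0.0132), and it stayed called in all 29 other fits. Srebf2, the sterol-responsive factor cut by the same proteases, averaged 4839 units in EPCAM- cells and 6152 units in EPCAM+ cells and fell by 0.35 (SE 0.10, adjusted p = 0.0361, with 3.49% of all genes falling), a call kept in 15 of 29 other fits. It was the 1 called gene of 9 in its list.

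With the fractions paired, the Srebf and Atf6 list held 4 genes that fell, Srebf2, Insig2, Atf6 and Atf6b, and 0 that rose, where 9.14% of all genes fell. Atf6 and Atf6b fell by 0.17 and 0.20 on the log2 scale (adjusted p = 0.0497 and 0.0292). In that fit, 1 of 22 ER chaperone and unfolded protein response genes rose (Ern1, an ER stress sensor, 0.28) and 4 fell. The strongest fall was that of Eif2ak3, another ER stress sensor, at 0.52 (adjusted p = 1.13e-05). Of the 15 COPII genes 1 rose (Sec24d) and 2 fell (Sec23b and Sec24a), of the 19 Golgi genes 3 rose, and of the 12 other CREB and ATF genes 1 rose (Atf5) and 1 fell (Atf7). Among all genes 13.6% rose and 9.14% fell in that fit, which was chosen after the data were seen. The falls in the Srebf and Atf6 list, 4 of 9 tested genes, lay above that share, but the list was not tested as a set. The counts in the ER, COPII, Golgi and other CREB and ATF lists are read as no result about them.

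**Figure D4:**
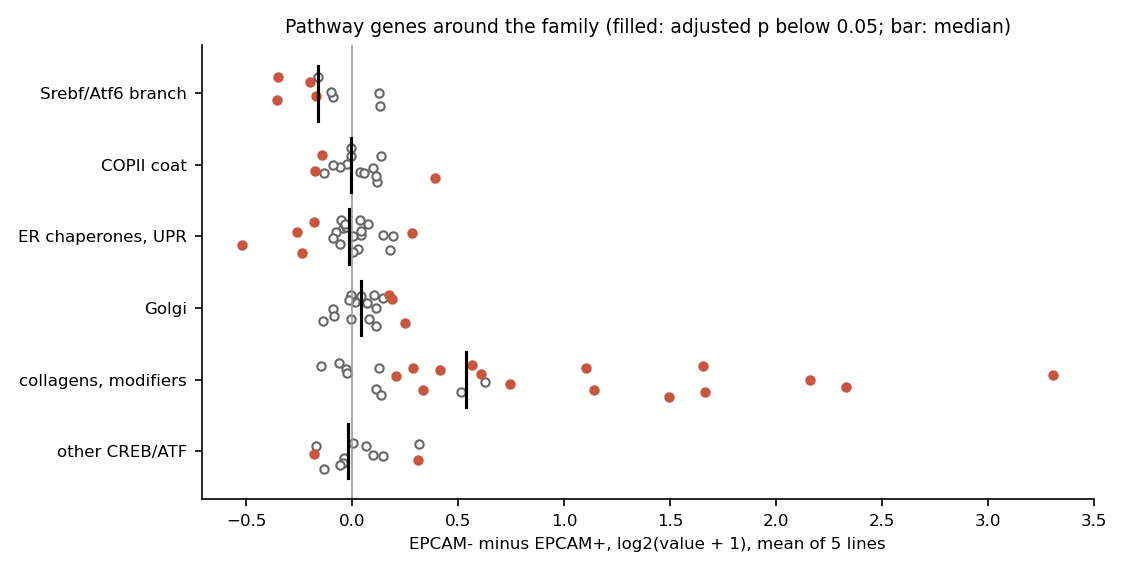
Difference of EPCAM- minus EPCAM+ in log2(value + 1), mean of the 5 lines with fractions paired, for the genes of 6 lists (points, spread vertically for legibility); filled points have an adjusted p below 0.05 and the black bar is the list median. The collagen list reaches 3.31 (Col3a1) and has 15 filled points, all to the right, whereas the other lists lie close to 0.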

How the data were processed

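The deposited table held normalised counts, here treated as a score because the sources used here do not say how the authors normalised them. Per the submitters' processing notes, FastQC, Trimmomatic, STAR, Picard and HTSeq were used with GRCm38/mm10, without versions. Per the labels' protocols, RNA was extracted with RNeasy micro, and Ovation Solo libraries were sequenced paired-end on a NovaSeq. In every library 99.8 to 99.9% of the values above 0 equalled a whole number of steps rounded up, so the step was read as 1 read.

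From these scores, log2(value + 1) was fitted in limma 3.58.1 (R 4.3.3) with 1 mean per group over all 22 libraries, a trended robust prior and Benjamini-Hochberg adjustment. Genes needed at least 10 units in at least 2 libraries. The fit was tested on simulated data, with changes only in well-detected genes and only for Creb3l1KO against the other 4 lines. That test does not cover the members near the detection limit, the fraction comparisons or the paired fit. The edgeR test planned for counts was not used, since the values are not counts. Fractions of a line with the same replicate number were also fitted as pairs: their replicate differences correlated at 0.17 to 0.38 across genes in all 5 lines. Over all 55 pairs of groups, these included, the median correlation was 0.146, so the lowest line, Creb3l1KO, was little above it. Exon lengths and positions came from GENCODE M21, promoters from RefSeq.

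The members and lists were chosen with earlier results of these data known. Named genes were the members, up to 6 listed genes per list called in a main comparison or else the 2 with the largest differences, and the 3 genes most correlated with each member. Col4a1 was added after its values were seen as the partner chain of Col4a2. Ctage5, Creb5 and Spring1 are not analysed here. Some tumour alleles are not reported here.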

Additional observations from a re-analysis of the deposited data

Results flagged for a closer look

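The EPCAM- minus EPCAM+ difference of 4 members ran one way in both pairs of one line and the other way in both pairs of another. How many of all genes do the same was not counted, so the count of 4 is no result about the members. The differences between lines, on the log2 scale, were not tested. Creb3 was higher in EPCAM- cells in both pairs of Pitx1KO, and the difference there exceeded that of Klf5KO by 0.32 and that of Control by 0.48. Creb3l3 was also higher in EPCAM- cells in both pairs of Pitx1KO, by 1.41 more than in Creb3l1KO, 2.19 more than in Klf5KO, 2.17 more than in Nfatc1KO and 2.2 more than in Control, but it had at most 12 reads in any library. Creb3l4, with at most 9 reads, was higher in both pairs of Nfatc1KO and lower in both pairs of Pitx1KO, a gap of 1.95. Mbtps2 was higher in EPCAM- cells in both pairs of Control, with a gap of 0.28 to Pitx1KO and 0.4 to Nfatc1KO.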

How the results depend on the processing

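In each comparison of Creb3l1KO with the other 4 lines, 0 members were called under any of the alternatives run. In Creb3l1KO against Control in EPCAM- cells the count of members called moved to 1 with a pseudocount of 5 units (Creb3l1), and in the 4 knockouts against Control in EPCAM- cells to 1 with that pseudocount, 1 with the replicate block and 1 with voom on the recovered reads, each time Creb3l1. In EPCAM- against EPCAM+ cells the count of 1 moved to 0 with a mean of at least 50 units, which removes Creb3l1, to 0 with voom, and to 2 with the fractions of a line paired. Leaving out 1 library gave 0 to 1 there and 0 in every other comparison. No member that was called reversed. Since the comparison of the 4 knockouts was added because of the Creb3l1 values, its calls of Creb3l1 are no independent support. Replicate numbers across all groups were not taken as pairs in the main fit: 36 of 55 pairs of groups correlated above 0.1 and the rest did not, down to -0.131. These values do not settle whether a replicate number is shared between groups. With the number as a replicate block, Creb3l1 in the 4 knockouts against Control in EPCAM- cells had an adjusted p of 0.0270 and in Creb3l1KO of 0.0583, Col4a1, Col5a2 and Crtap were called in Creb3l1KO against the other lines, and Col4a2 and Col5a2 in EPCAM- cells. Genes called in Creb3l1KO against the other lines numbered 849 with the block and 362 without, and between fractions 1973 with the block, 4450 with pairing and 1218 without. In Creb3l1KO against the other lines they numbered 139 to 185 when any of the 4 Creb3l1KO libraries was left out. The planned edgeR fit was not run, since the values are not counts. Depth limits Creb3l1, Creb3l3 and Creb3l4, at no more than 48, 12 and 9 reads in a library.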
